A study of Mus musculus with 12 samples.

Results

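Kng1, Hp, Esm1, Synpo and Ttyh2 are 5 mouse genes that were high in marrow stromal cells of mice with intact p53 and lower in the corresponding cells of p53 knockout mice or in sarcomas of such mice. They were chosen by their values in the same 12 libraries that are described here. They are 5 of 24421 genes in the deposited table, and all 5 are among the 18948 genes that entered a test. Because their values chose them, their levels and differences are given as a description, without a test.

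Bulk RNA sequencing was done on 3 libraries of mesenchymal stem cells (MSCs) of p53 wild-type mice (WT MSC), 3 of MSCs of p53 knockout mice (KO MSC) and 6 of sarcomas that arose in bone or bone marrow of p53 knockout mice. All were labelled as freshly isolated, with no other treatment. The MSCs were sorted as CD45-, Ter119- and CD31-, and as positive for CD140a, the receptor encoded by Pdgfra, and for the leptin receptor LepR. For tumors the labels describe a TRIzol extraction without a sort, so other cells of the tumor may be in these libraries. KO MSC and tumors thus share the knockout label, and they differ in tissue, sort and extraction at once. The sources used here give neither the age of the mice nor the knockout allele, and they do not tell whether libraries came from separate animals, so any p-value below measures only the spread between libraries, which may be technical.

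The 5 genes have no common function. Kng1 encodes kininogen, the liver-made plasma protein from which kallikreins release bradykinin, a peptide that widens and opens blood vessels. Hp encodes haptoglobin, which binds free haemoglobin for clearance, is made by liver in the acute phase response and by fat, and is stored in neutrophil granules. Esm1 encodes endocan, a secreted proteoglycan known from sprouting endothelial tip cells under VEGF. Synpo encodes synaptopodin, an actin-associated protein of kidney podocytes and dendritic spines. Ttyh2 encodes a membrane protein of the tweety family, which has been linked to anion currents. LepR+ marrow stromal cells lie around sinusoids, support blood formation through Cxcl12 and Kitl, and give rise to marrow fat and bone.

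The values are variance-stabilized log2 values, on which 1 unit is close to a doubling for well-expressed genes and less for genes near the floor, the value of a gene without signal. The floor of a gene is not the same in all libraries. Shared floor values divide the libraries into 2 sets, of which set 1 holds WT_MSC 1, KO_MSC 1 and tumors 1 to 3, and set 2 holds WT_MSC 2 and 3, KO_MSC 2 and 3 and tumors 4 to 6. Differences within a set are free of the shift between sets and are given beside the pooled ones. The knockout label was not borne out by every library. Trp53, which encodes p53, was at 9.96, 10.04 and 10.61 in WT MSC but had 10.49, 9.76 and 6.96 in those labelled KO_MSC 1, 2 and 3, and 6.79 to 9.16 in tumors. The labels do not name the deleted exons, and each statement on KO MSC is a statement on libraries so labelled. The library labelled KO_MSC 3 had the most genes at the floor (12398), while WT_MSC 1 and the library labelled KO_MSC 1 had 3736 and 2642. The sorted cells carried their markers, with Lepr at 14.56 to 15.60 in WT MSC and 11.63 to 14.12 in the libraries labelled KO MSC, and Pdgfra at 11.38 to 11.81 and 9.11 to 9.93. Pecam1, which encodes CD31, was at its floor of 5.46 in 3 of the 4 MSC libraries of set 2 and at 5.81 in WT_MSC 2. In set 1, where its floor is 4.04, it was above the floor, at 4.76 in WT_MSC 1 and 5.46 in the library labelled KO_MSC 1.

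The 5 genes followed 2 main patterns, and Kng1 had part of both. Kng1, Hp and Esm1 were lower in every tumor than in any MSC library, by 5.00 to 7.69 in the group means. Synpo and Ttyh2 were lower in every library labelled KO MSC than in any WT MSC library, by 1.90 and 2.04, and varied widely among tumors. For Kng1 the difference of KO MSC from WT MSC was -1.77, near that of Synpo and Ttyh2, but its libraries overlapped. The working name of the group, stromal genes lost from wild type onward, did not hold for Hp and Esm1 in the first step, since their KO MSC and WT MSC libraries overlapped and the 2 sets differed in sign. All 5 had a lower mean in KO MSC than in WT MSC, but only 2 of 5 were wholly below it, where 8.93% of all genes tested were. Against KO MSC, tumors had a lower mean in 4 of 5 and were wholly lower in 3 of 5, where 5.39% of all genes were. Against WT MSC, tumors had a lower mean in 5 of 5 and were wholly lower in 4 of 5, where 12.3% of all genes were. Nothing is read from these counts, since these contrasts chose the genes. The median difference of the 5 genes was -1.77, -5.00 and -5.46 in the 3 comparisons, beside -0.01, 0.04 and -0.06 over all genes tested.

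**Figure D1:**
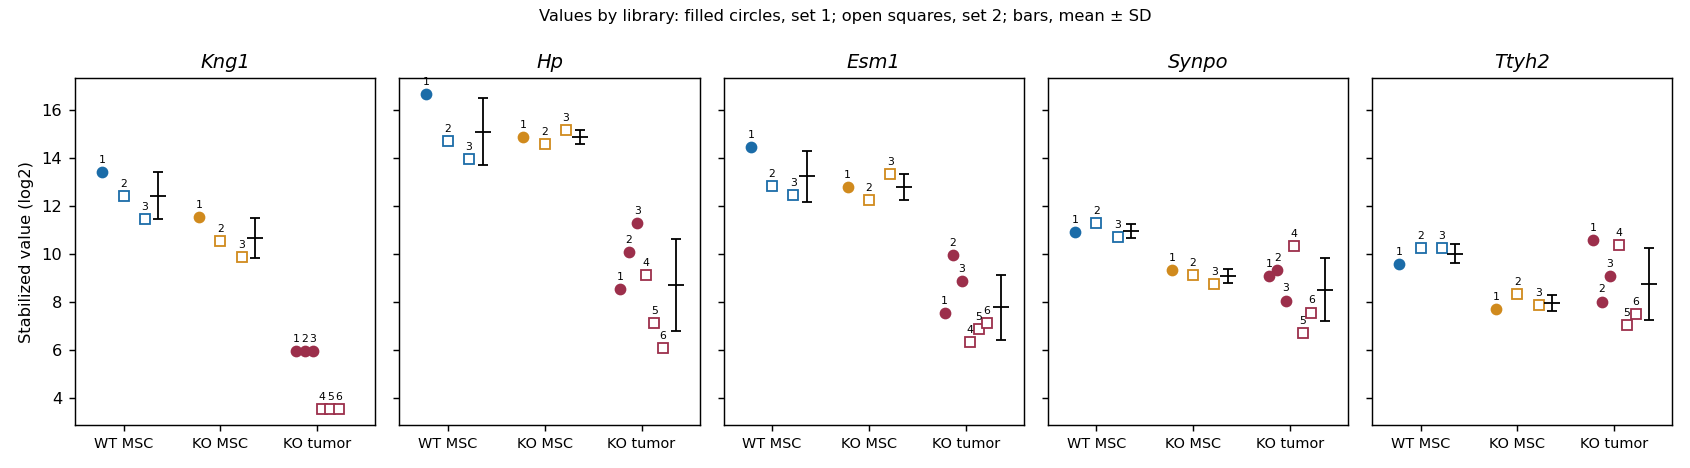
Stabilized log2 value (vertical axis) of each of the 5 genes in every library, numbered by replicate and grouped as WT MSC, KO MSC and tumor (horizontal axis). Filled circles are set 1, open squares set 2, and the bars give mean ± SD (not drawn for Kng1 in tumors, where every library is at its floor). Kng1, Hp and Esm1 have no tumor above an MSC library, while for Ttyh2 tumors 1 and 4 lie at 10.59 and 10.39, above all 3 WT MSC libraries.

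Kng1 lies on chromosome 16 (GRCm38, 23057865 to 23082078, plus strand), with 10 exons in its longest coding transcript. Its value was 13.43, 12.42 and 11.48 in WT_MSC 1, 2 and 3 and, in the KO MSC libraries in the same order of number, 11.57, 10.55 and 9.90. In tumors it was 5.95 in tumors 1 to 3 and 3.55 in tumors 4 to 6. All 6 tumor values are the floor of their set, so Kng1 was not detected in any tumor, and the gap between the tumors is the shift between sets. The mean was 12.44 ± 0.98 (SD, n = 3) in WT MSC and 10.67 ± 0.84 (SD, n = 3) in KO MSC, a difference of -1.77 ± 0.64 (SE, n = 3 and 3). The groups overlapped as deposited, since the highest KO_MSC library, in set 1, lay just above WT_MSC 3, in set 2.

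Within set 1, with 1 library in each MSC group, the difference between KO MSC and WT MSC was -1.86, and within set 2 it was -1.73. Nothing is read from the likeness of the 2 values, since this contrast helped to choose Kng1. When the shift was taken off, a step added after the data were seen, WT MSC had 12.23, 13.62 and 12.68 and KO MSC had 10.37, 11.75 and 11.10, and the groups no longer overlapped. The means were then 12.84 ± 0.71 and 11.07 ± 0.69 (SD, n = 3 each), and all 6 tumors were at the common floor of 4.75. The deposited values are batch-adjusted, so this step may undo part of that adjustment and bring back a difference between sets. It was not applied to all genes, and this contrast helped to choose Kng1, so nothing is read from the lost overlap. As deposited, the tumor mean was 5.92 ± 0.75 below that of KO MSC, with -5.62 and -6.67 within sets 1 and 2. It was 7.69 ± 0.74 below that of WT MSC, with -7.48 and -8.40 within the sets (SE, n = 3 and 6). The pooled differences carry part of the shift, since MSCs and tumors hold the sets in unlike shares. All these differences end at the floor and so may understate the change, by an amount that cannot be told. Of the 18948 genes, 3 had a lower value of tumor minus WT MSC. Nothing is read from this rank, since the contrast chose Kng1. In bulk samples, fewer cells of a type and less RNA per cell cannot be told apart.

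**Figure D2:**
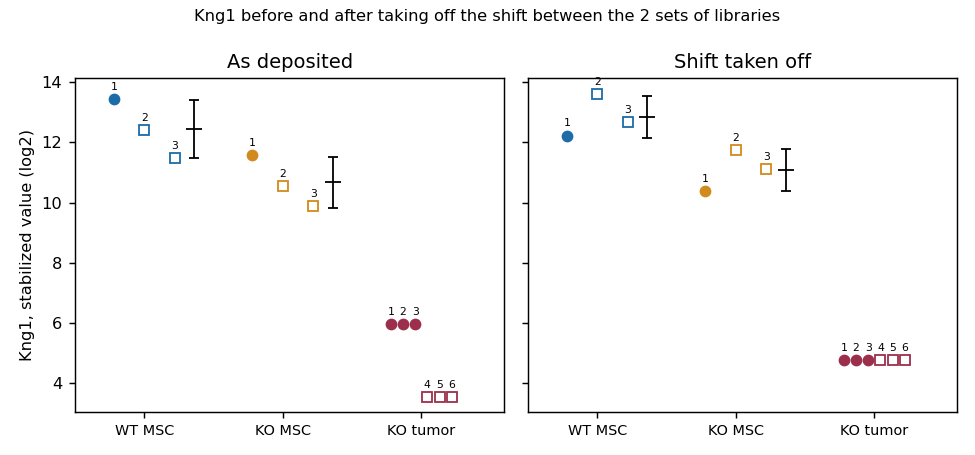
Stabilized log2 value of Kng1 (vertical axis) in each library by group (horizontal axis), as deposited on the left and with the shift between the 2 sets of libraries taken off on the right; circles are set 1, squares set 2, and the bars give mean ± SD. On the right all 6 tumors are at 4.75 and the highest KO MSC library (11.75) is below the lowest WT MSC library (12.23). Taking off the shift may undo part of the batch adjustment of the deposited values.

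Mice carry a second kininogen gene, Kng2, next to Kng1 on chromosome 16 (22985854 to 23029482, minus strand). The coding sequences of Kng1 and Kng2 were identical at 1788 of 1929 aligned bases (92.69%). A window of 90 coding bases, positions 338 to 427 of both, is shown because it holds the most differences, 20 bases in capitals, by which reads of the genes can be told apart (GENCODE M21, GRCm38).
Kng1: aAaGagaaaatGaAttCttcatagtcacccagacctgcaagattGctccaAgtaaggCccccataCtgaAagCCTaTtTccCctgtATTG
Kng2: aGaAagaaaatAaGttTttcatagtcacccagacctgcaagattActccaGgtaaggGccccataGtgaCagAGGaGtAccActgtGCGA
The longest stretch without a difference has 116 bases, positions 752 to 867 of the Kng1 coding sequence, and is shown because a read inside it fits both genes.
Kng1 and Kng2: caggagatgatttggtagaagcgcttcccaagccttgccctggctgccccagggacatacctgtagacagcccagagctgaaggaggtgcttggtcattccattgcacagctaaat
Of all windows of 50 bases in the Kng1 transcript 17.95% also occur in the Kng2 transcript, and of those of 100 bases 5.80% do. The sources used here do not tell how such reads were counted, so the split between Kng1 and Kng2 is uncertain.

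Kng2 had values of 13.36, 11.96 and 11.20 in WT_MSC 1 to 3 and of 11.49, 10.56 and 10.58 in KO_MSC 1 to 3. It was at the floor in 5 of 6 tumors and at 4.62 in tumor 4, above the floor of 3.38. In tumors against WT MSC, Kng2 fell by 7.22 ± 0.78 (SE; adjusted p = 0.000945, limma) and by 5.92 ± 0.74 in tumors against KO MSC (adjusted p = 0.00334, limma; SE, n = 3 and 6). Both calls held without any 1 library. The difference of KO MSC from WT MSC was -1.30 ± 0.61 (adjusted p = 0.599, limma), with -1.87 and -1.02 within sets 1 and 2. Since reads can be shared, Kng2 is not an independent measure of Kng1.

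The other genes of the kinin system did not share the fall as a group. In the comparison of tumors with WT MSC, limma called 21.3% of all genes, and of the 15 kinin genes 4 fell, 0 rose and 11 did not pass (median -0.13, beside -0.06 over all genes). Besides Kng2 these were Serping1, which encodes the inhibitor of C1 and plasma kallikrein (-6.19 ± 0.91, adjusted p = 0.00180, limma), Mme, which encodes neprilysin, a kinin-degrading peptidase (-5.08 ± 0.85, adjusted p = 0.00285, limma), and the aminopeptidase gene Xpnpep1 (-1.64 ± 0.48, adjusted p = 0.0345, limma). Serping1 was at 15.05 to 16.23 in WT MSC and at 6.53 to 11.33 in tumors. The call of Xpnpep1 was lost without any of the 3 WT MSC libraries or tumors 1, 2, 3, 5 or 6 (adjusted p = 0.0538 to 0.129, limma). Against KO MSC, where limma called 4.98% of all genes, 2 of 15 fell, Kng2 and Mme. Mme (-3.68 ± 0.86, adjusted p = 0.0336, limma) was lost without the library labelled KO_MSC 1 or 2 or tumor 2, 4 or 6 (adjusted p = 0.0546 to 0.162, limma).

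The receptors and activators of the pathway were near the floor. The bradykinin receptor gene Bdkrb1 was at 4.96 to 5.24 in the 6 MSC libraries and at 5.14 to 6.93 in tumors, and Bdkrb2 at 4.85 to 5.08 and 4.65 to 6.30. Both were highest in tumor 4, and neither passed in any of the 3 comparisons (lowest adjusted p = 0.309 for Bdkrb1 and 0.635 for Bdkrb2, limma). F12, which encodes the clotting factor that starts the contact cascade, was at the floor in all 6 tumors, and Klkb1, which encodes plasma kallikrein, in 5 of 6. No gene of any list passed in KO MSC against WT MSC, where limma called 0 of 18948 genes (0%), against 1637 at an unadjusted p under 0.05 and 2447 with library weights.

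Hp lies on chromosome 8 (GRCm38, 109575128 to 109579172, minus strand), with 5 exons. Its value was 16.67, 14.72 and 13.96 in WT_MSC 1, 2 and 3 and 14.88, 14.60 and 15.19 in the libraries labelled KO_MSC 1, 2 and 3. Tumors 1 to 6 had 8.56, 10.11, 11.30, 9.14, 7.12 and 6.10. The MSC groups overlapped fully, with WT_MSC 1 above all other libraries, and every tumor was below every MSC library. The means were 15.12 ± 1.40 and 14.89 ± 0.30 in WT MSC and KO MSC and 8.72 ± 1.91 in tumors (SD, n = 3, 3 and 6).

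The difference of KO MSC from WT MSC for Hp was -0.23 ± 0.91 (SE, n = 3 and 3), smaller than its error. Within set 1 it was -1.79 and within set 2 it was 0.55, and it turned to 0.55 without WT_MSC 1. Hp was thus not lower in KO MSC beyond the spread between libraries. In tumors it was 6.17 ± 0.94 below KO MSC, with -4.89 and -7.44 within the sets, and 6.40 ± 1.04 below WT MSC, with -6.68 and -6.88 within the sets (SE, n = 3 and 6). Unlike for Kng1, tumors of the same set shared no value for Hp, and no floor was found for it. The 6 tumors ranged from 6.10 to 11.30, and whether a single tumor was at the floor cannot be told.

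The partners of haptoglobin had other patterns. Hpx, which encodes the haem carrier hemopexin and is made by liver beside haptoglobin, was at 4.61 to 5.24 in all 12 libraries, with 4 of 6 tumors at the floor (limma, tumors against WT MSC, adjusted p = 0.881). Cd163, the macrophage receptor for haptoglobin bound to haemoglobin, was at 5.39 to 5.78 in WT MSC and at 6.49 to 8.34 in tumors. Cd163 rose by 1.89 ± 0.43 in tumors against WT MSC (SE, n = 3 and 6; adjusted p = 0.0111, limma), and the call was lost without WT_MSC 2 (adjusted p = 0.0550, limma). Hmox1, which breaks down haem, was at 7.64 to 9.35 in tumors and 7.76 to 8.28 in WT MSC and did not pass (adjusted p = 0.305, limma).

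Of 20 haem scavenging and acute phase genes tested, 4 fell, 2 rose and 14 did not pass in tumors against WT MSC (median 0.02, beside -0.06 over all genes, of which limma called 21.3%). Those that fell included Lbp, the acute phase protein that binds lipopolysaccharide (-4.99 ± 0.71, adjusted p = 0.00162, limma), Cp, the copper carrier ceruloplasmin (-4.01 ± 0.38, adjusted p = 0.000710, limma), and Il6st, the signaling receptor chain of the IL-6 family (-2.55 ± 0.49, adjusted p = 0.00509, limma). Lbp had values of 12.22, 10.58 and 9.92 in WT_MSC 1 to 3 and of 11.07, 10.26 and 10.37 in KO_MSC 1 to 3, with tumors between 3.97 and 6.75. Like Hp, its MSC groups overlapped and its tumors lay below them. Stat3, the transcription factor downstream of Il6st, fell by 2.04 ± 0.55 (adjusted p = 0.0245, limma) and was lost without any of the 3 WT MSC libraries (adjusted p = 0.0715 to 0.0974, limma). Besides Cd163 the bilirubin-forming enzyme gene Blvra rose (1.05 ± 0.33, adjusted p = 0.0432, limma), named after its values were seen. The count that rose was 0 without WT_MSC 2 and 1 without WT_MSC 1, WT_MSC 3, tumor 3 or tumor 6. In tumors against KO MSC, where limma called 4.98% of all genes, 1 of 20 fell, Lbp (-4.65 ± 0.645, adjusted p = 0.00436, limma). The count that fell was 2 without the library labelled KO_MSC 3 or tumor 3.

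Kng1 and Hp are best known from liver, but most hepatocyte genes were at or near the floor. The mean of the 7 hepatocyte genes tested of 10 listed was 4.81 to 5.26 in all 12 libraries. Their highest single values were those of Apoa2 in tumor 5 (6.96, floor 5.06) and Cyp2e1 in tumor 4 (6.95, floor 4.55). Alb, which encodes albumin, was at its floor in 2 of 3 WT MSC, 2 of 3 KO MSC and 6 of 6 tumor libraries and at 5.39 and 5.67 in WT_MSC 1 and the library labelled KO_MSC 1. Neutrophils, which store haptoglobin, had markers in the MSC libraries despite the CD45- sort. The mean of 12 neutrophil markers was 10.002, 8.70 and 6.86 in WT_MSC 1, 2 and 3, 11.57, 8.81 and 7.65 in the libraries labelled KO_MSC 1, 2 and 3, and 5.22 to 7.44 in tumors. In WT MSC the order of libraries was the same for Hp and for these markers, while in KO MSC the highest Hp value was in KO_MSC 3, which had the lowest marker mean. Of the 12 markers 0 rose, 4 fell and 8 did not pass in tumors against WT MSC, where limma called 21.3% of all genes. Their median difference was -2.11, but it was -4.57 within set 1 and -0.06 within set 2. Against KO MSC, where limma called 4.98% of all genes, 6 fell (median -3.45, with -6.61 and -1.80 within the sets). Only 1 fell when the library labelled KO_MSC 1 was left out, 2 when KO_MSC 2 was and 3 when tumor 3 was. The part of neutrophil RNA in the Hp values was not tested.

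Esm1 lies on chromosome 13 (GRCm38, 113209659 to 113218098, plus strand), with 3 exons. Its value was 14.46, 12.85 and 12.45 in WT_MSC 1, 2 and 3 and 12.80, 12.26 and 13.34 in the libraries labelled KO_MSC 1, 2 and 3. Tumors 1 to 6 had 7.56, 9.96, 8.87, 6.35, 6.89 and 7.14. As for Hp, WT_MSC 1 was the highest library, the MSC groups overlapped, and all tumors lay below all MSC libraries. The means were 13.25 ± 1.06, 12.80 ± 0.54 and 7.80 ± 1.36 in WT MSC, KO MSC and tumors (SD, n = 3, 3 and 6).

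For Esm1 the difference of KO MSC from WT MSC was -0.46 ± 0.66 (SE, n = 3 and 3), with -1.66 within set 1 and 0.15 within set 2. It was also 0.15 without WT_MSC 1, so its sign rested on that library, and it was -0.86 without WT_MSC 3, -0.19 and -0.73 when the libraries labelled KO_MSC 2 and 3 were left out. In tumors Esm1 was 5.00 ± 0.71 below KO MSC, with -4.00 and -6.01 within the sets, and 5.46 ± 0.77 below WT MSC, with -5.66 and -5.86 within the sets (SE, n = 3 and 6). Both sets gave the same direction for tumors, from which nothing is read, since these contrasts chose Esm1.

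Esm1 is known as an endothelial gene, and in these libraries it was lowest in tumors, where the endothelial markers were highest. The mean of 10 endothelial markers was 5.20 to 5.63 in WT MSC, 5.31 to 5.75 in KO MSC and 6.80 to 9.04 in tumors. Cdh5, which encodes the endothelial cadherin, was at its floor in 2 of 3 libraries of each MSC group and rose by 2.97 ± 0.45 in tumors against WT MSC (SE, n = 3 and 6; adjusted p = 0.00203, limma). Tumor 4 had the highest endothelial mean (9.04) and the lowest Esm1 value (6.35), and tumor 2 had the lowest endothelial mean (6.80) and the highest Esm1 value (9.96). Tumors 3 and 5 did not have this opposite order, with an endothelial mean of 8.02 beside an Esm1 value of 8.87 in tumor 3 and of 7.29 beside 6.89 in tumor 5. The part of endothelial cells in the Esm1 values was not tested. Of the 10 markers 9 rose in tumors against WT MSC, where limma called 21.3% of all genes, but 3 did without WT_MSC 1. Against KO MSC, where limma called 4.98% of all genes, 5 rose. That count was 0 when the library labelled KO_MSC 1 was left out, 1 when KO_MSC 2 was and 3 when tumor 3 or tumor 6 was.

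The VEGF and tip cell genes moved both ways. Of 17 tested, 3 rose, 4 fell and 10 did not pass in tumors against WT MSC (median -0.35, beside -0.06 over all genes, of which limma called 21.3%). Those that rose included the VEGF receptor gene Kdr (2.40 ± 0.50, adjusted p = 0.00718, limma) and the Notch ligand gene Dll4 (2.21 ± 0.44, adjusted p = 0.00638, limma), both endothelial. Those that fell were Vegfc, a growth factor of lymph vessels (-3.35 ± 0.60, adjusted p = 0.00383, limma), the VEGF co-receptor gene Nrp1 (-2.84 ± 0.49, adjusted p = 0.00323, limma), the Tie2 ligand gene Angpt2 (-2.85 ± 0.56, adjusted p = 0.00590, limma) and the basement membrane gene Nid2 (-3.36 ± 0.63, adjusted p = 0.00472, limma; SE, n = 3 and 6). These 6 calls held without any 1 library. The third gene that rose, the VEGF receptor gene Flt1 (1.86 ± 0.52, adjusted p = 0.0273, limma), was named after its values were seen, and its call was lost without any of the 3 WT MSC libraries.

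Vegfa, whose product is known to raise Esm1 in endothelium, was at 8.85, 9.28 and 9.12 in WT MSC and between 7.27 and 8.73 in tumors, and did not pass (-1.14 ± 0.38, adjusted p = 0.0563, limma). Against KO MSC, where limma called 4.98% of all genes, 3 of 17 rose, Kdr, Dll4 and the apelin gene Apln (2.205 ± 0.54, adjusted p = 0.0393, limma). None of the 3 passed without the library labelled KO_MSC 1 or 2, and 1 of 17 rose without tumor 3, tumor 5 or tumor 6.

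The 250 bases before the RefSeq start site of Esm1 (GRCm38.p6, chr13:113209409-113209658, plus strand) are shown as the promoter of a gene of the tumor pattern. They are 44.0% G and C, where the median of 32851 mouse promoters is 52.4%.
Esm1: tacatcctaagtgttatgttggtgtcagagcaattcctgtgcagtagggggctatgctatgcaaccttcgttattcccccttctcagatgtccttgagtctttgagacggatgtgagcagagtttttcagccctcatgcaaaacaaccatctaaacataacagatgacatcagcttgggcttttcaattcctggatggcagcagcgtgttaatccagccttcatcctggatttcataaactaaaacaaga
Of 5 motifs searched on both strands, none matched in this window. They were TATAAA (the TATA box), TTGCNNAA (C/EBP), GTAAACA (forkhead), the palindromic EBF motif and the p53 half-site, which occur in 12.37%, 9.56%, 3.17%, 0.78% and 7.13% of promoters of this length. No match says only that these letters are not in this window.

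Synpo lies on chromosome 18 (GRCm38, 60593973 to 60660142, minus strand), with 3 exons in its longest coding transcript. Its value was 10.92, 11.29 and 10.73 in WT_MSC 1, 2 and 3 and 9.34, 9.15 and 8.76 in the libraries labelled KO_MSC 1, 2 and 3. Tumors 1 to 6 had 9.08, 9.36, 8.07, 10.35, 6.73 and 7.57. All KO MSC libraries and all tumors were below all WT MSC libraries, and tumors lay on both sides of KO MSC, with tumor 4 nearest to WT MSC. The means were 10.98 ± 0.29, 9.08 ± 0.30 and 8.53 ± 1.32 in WT MSC, KO MSC and tumors (SD, n = 3, 3 and 6).

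Synpo was 1.90 ± 0.36 lower in KO MSC than in WT MSC (SE, n = 3 and 3), with -1.58 and -2.06 within sets 1 and 2. Each of the libraries labelled KO MSC was lower, also KO_MSC 1 and 2, in which Trp53 was close to its WT MSC values. Tumors were 2.45 ± 0.68 below WT MSC, with -2.08 and -2.79 within the sets. Against KO MSC the difference of -0.55 ± 0.69 was smaller than its error (SE, n = 3 and 6), and it ranged from -0.92 without tumor 4 to -0.19 without tumor 5, with -0.36 without tumor 6. The means were in the order WT MSC, KO MSC and tumors, and the libraries of the last 2 groups overlapped. Nothing is read from this order, since these contrasts chose Synpo.

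Of the partners of synaptopodin, Actn4, which encodes the alpha-actinin that synaptopodin binds, was at 11.03, 12.23 and 11.70 in WT MSC, 11.47, 9.60 and 6.93 in the libraries labelled KO_MSC 1, 2 and 3, and 9.20 to 13.46 in tumors, highest in tumor 4. The related gene Synpo2 was at 7.65 to 7.77 in WT MSC, 6.96, 6.46 and 4.83 in the libraries labelled KO_MSC 1, 2 and 3, and 4.83 to 9.41 in tumors, again highest in tumor 4. Neither passed in any comparison (lowest adjusted p = 0.231 for Actn4 and 0.301 for Synpo2, limma). For Actn4 the difference of KO MSC from WT MSC was 0.43 within set 1 and -3.70 within set 2, so the 2 sets did not share a direction. Tumor 4 was the highest tumor for Synpo and both partners, but the drop of Actn4 and Synpo2 in the library labelled KO_MSC 3 had no counterpart in Synpo, which was at 8.76 there.

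Of 14 synaptopodin partners and podocyte actin genes tested, none fell in any comparison. In tumors against WT MSC 2 rose (median 0.74, beside -0.06 over all genes, of which limma called 21.3%). These were the podocyte and endothelial surface gene Podxl (2.10 ± 0.52, adjusted p = 0.0160, limma) and the junction scaffold gene Magi1 (1.01 ± 0.28, adjusted p = 0.0278, limma). Podxl was lost without WT_MSC 1 or 2 (adjusted p = 0.0588 to 0.0940, limma) and Magi1 without WT_MSC 1 or 3 (adjusted p = 0.109 to 0.139, limma), and 2 genes fell without tumor 4. Against KO MSC, where limma called 4.98% of all genes, the alpha-actinin gene Actn1 rose by 2.78 ± 0.54 (adjusted p = 0.0177, limma). Actn1 did not pass when the library labelled KO_MSC 1 was left out (limma, adjusted p = 0.118). The count that rose was 2 without the library labelled KO_MSC 3 or tumor 2.

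Ttyh2 lies on chromosome 11 (GRCm38, 114675431 to 114720977, plus strand), with 14 exons. Its value was 9.58, 10.24 and 10.26 in WT_MSC 1, 2 and 3 and 7.70, 8.36 and 7.89 in the libraries labelled KO_MSC 1, 2 and 3. Tumors 1 to 6 had 10.59, 8.03, 9.08, 10.39, 7.04 and 7.52. Every KO MSC library was below every WT MSC library, and the tumors spanned both groups, with tumors 1 and 4 above all WT MSC libraries and tumors 5 and 6 below all KO MSC libraries. The means were 10.03 ± 0.39, 7.99 ± 0.34 and 8.77 ± 1.49 in WT MSC, KO MSC and tumors (SD, n = 3, 3 and 6).

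Ttyh2 was 2.04 ± 0.38 lower in KO MSC than in WT MSC (SE, n = 3 and 3), with -1.87 and -2.12 within sets 1 and 2. Its tumor mean was above that of KO MSC by 0.79 ± 0.76 (SE, n = 3 and 6), close to its error, while the other 4 genes had a lower tumor mean. That difference was 1.53 within set 1 and 0.19 within set 2, and 0.43 and 0.46 without tumor 1 and without tumor 4. Against WT MSC it was -1.25 ± 0.76, with -0.34 and -1.93 within the sets. The tumors as a group were therefore not separated from either MSC group, and the label of a loss that continues into tumors does not describe Ttyh2.

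Only Esm1 and Ttyh2 had a promoter sequence in the reference used, so Kng1, Hp and Synpo were not searched for motifs. Of Esm1 and Ttyh2, only Ttyh2 had a p53 half-site, and its start region is shown. The 213 bases lie from 250 bases before the RefSeq start site up to the first annotated transcript base (GRCm38.p6, chr11:114675218-114675430, plus strand), and the capitals mark the half-site, at positions -174 to -165 from the start site.
Ttyh2: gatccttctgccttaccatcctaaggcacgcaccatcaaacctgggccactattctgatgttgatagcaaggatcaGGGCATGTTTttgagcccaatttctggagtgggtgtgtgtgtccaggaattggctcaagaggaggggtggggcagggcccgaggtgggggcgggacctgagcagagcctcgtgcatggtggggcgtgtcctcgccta
A half-site occurs in 7.13% of promoters, and the match is a description of letters, not a site or a cause. It overlaps no other match, since none of the other 4 motifs matched in the 250 bases.

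Of 12 other genes, of the tweety family, of swelling-activated channels and of the ubiquitin ligases Nedd4 and Nedd4l, 10 had a lower mean in KO MSC than in WT MSC and 0 passed (median -0.65, beside -0.01 over all genes). The median was -0.04 within set 1 and -1.35 within set 2. Ttyh3 was at 7.98, 9.32 and 9.43 in WT MSC, 7.89, 8.06 and 7.26 in the libraries labelled KO_MSC 1, 2 and 3, and 5.99 to 9.75 in tumors. Its highest tumors were 1 and 4 (9.75 and 9.74), the same as for Ttyh2. Ttyh1, known from brain, was at 4.89 to 4.98 in MSCs and 4.98 to 6.37 in tumors, near its floor. Neither passed in any comparison (lowest adjusted p = 0.452 for Ttyh3 and 0.143 for Ttyh1, limma). Of the 12 genes of the list 1 rose, 0 fell and 11 did not pass in tumors against WT MSC (median -0.52, beside -0.06 over all genes, of which limma called 21.3%). The gene that rose was the calcium-activated chloride channel gene Ano1 (2.08 ± 0.64, adjusted p = 0.0418, limma), and without 8 of the 9 libraries, all but tumor 2, its call was lost (adjusted p = 0.0536 to 0.128, limma). Without tumor 4, 2 of the 12 fell. Against KO MSC limma called 0 of the 12 and 4.98% of all genes, while 1 of the 12 rose without tumor 2 and 1 fell without the library labelled KO_MSC 3.

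**Figure D3:**
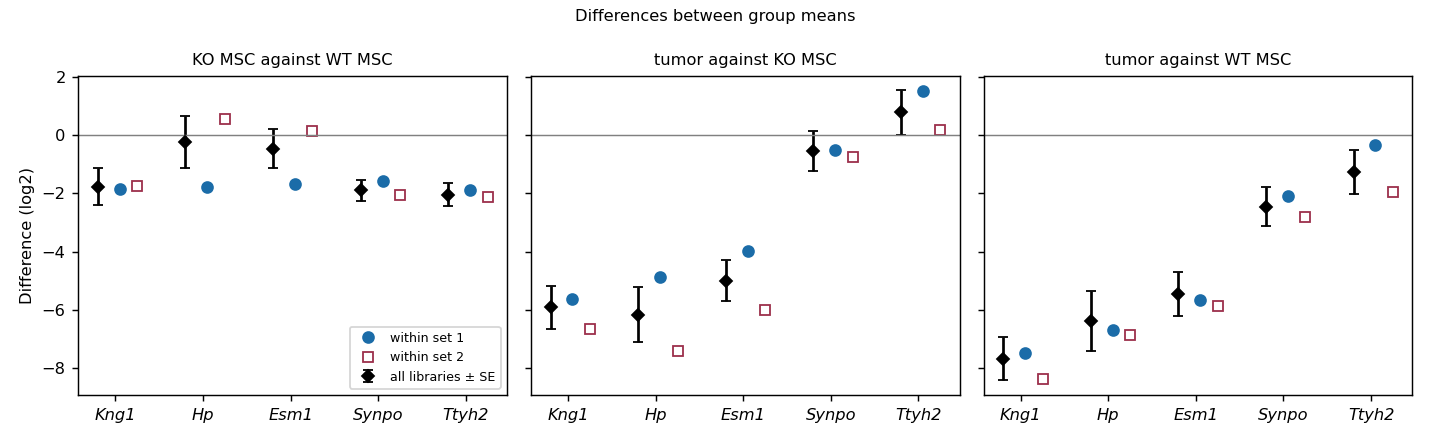
Difference between group means in log2 units (vertical axis) for each of the 5 genes (horizontal axis) in the 3 comparisons. Black diamonds are all libraries ± SE, blue circles within set 1 and open squares within set 2. In KO MSC against WT MSC the sets differ in sign for Hp (-1.79 and 0.55) and Esm1 (-1.66 and 0.15) and nearly coincide for Kng1, while Ttyh2 is the gene above 0 in tumor against KO MSC.

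The distances between the profiles are a description of the values that chose the genes. The measure is the root mean square difference of 2 genes over the 12 libraries after each gene was centred on its own mean, in log2 units. It was 1.14 between Kng1 and Hp, 1.17 between Kng1 and Esm1, 1.10 between Hp and Esm1 and 0.93 between Synpo and Ttyh2. Between the first 3 genes and the last 2 it ranged from 2.32 for Esm1 and Synpo to 3.52 for Kng1 and Ttyh2. The size of the tumor difference, which sets Kng1, Hp and Esm1 apart, enters these distances directly.

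Among all genes tested, the nearest to Kng1 were Kng2 (0.40), the BMP antagonist gene Chrdl1 (0.49) and Lepr (0.88). Hp was nearest to Adipoq, the fat hormone adiponectin (0.55), Kng2 (0.83) and Cxcl12 (0.98). Esm1 was nearest to the Wnt enhancer gene Rspo2 (0.60), the tight junction gene Cldn1 (0.65) and Il1rn, the interleukin-1 receptor antagonist (0.69). Lepr, Cxcl12 and Adipoq are among the stromal identity genes, so genes of the sorted cell type stood beside Kng1 and Hp. The differences of all these nearest genes follow from the choice by likeness. Kng2 is tested above as the paralog of Kng1, and Lepr, Cxcl12 and Adipoq enter the list counts below. No test is given for the others.

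Adipoq had the same order as Hp among the 6 MSC libraries except that WT_MSC 3 and KO_MSC 2 changed places. Its values were 15.22, 13.52 and 12.95 in WT_MSC 1, 2 and 3, 13.70, 12.53 and 14.29 in the libraries labelled KO_MSC 1, 2 and 3, and 4.05 to 8.94 in tumors. Synpo was nearest to Rhbdf1, an inactive rhomboid (0.34), Lmf2, related to lipase maturation (0.42), and Lzts2 (0.43). Ttyh2 was nearest to the formin gene Fmnl3 (0.35), the integrin gene Itgb5 (0.42) and the kinase gene Dmpk (0.44).

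**Figure D4:**
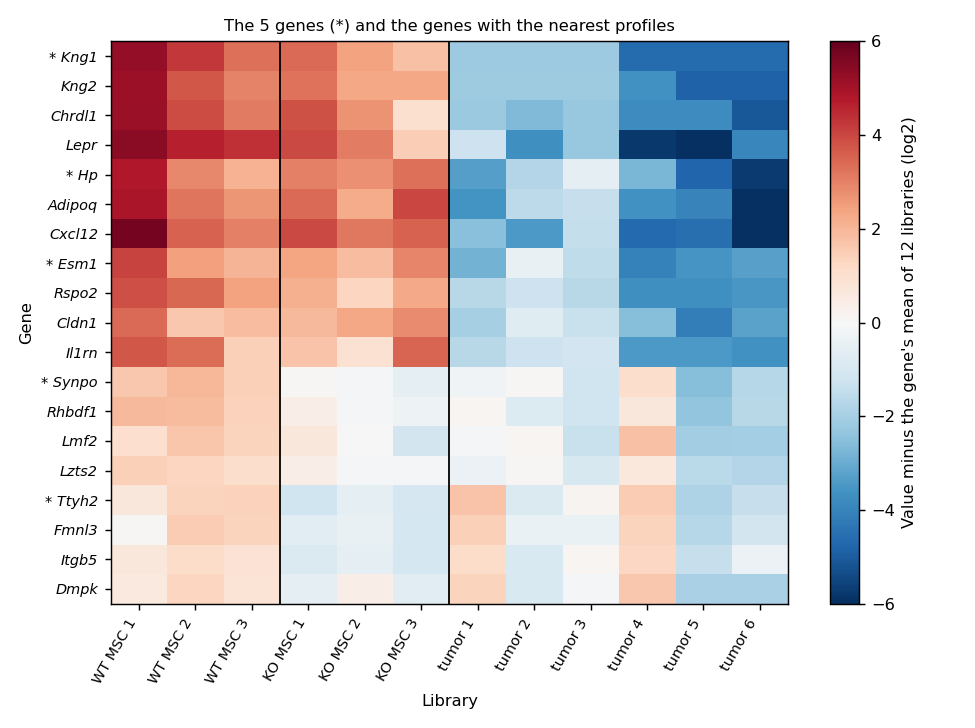
Heat map of the 5 genes (marked with an asterisk) and the 3 genes nearest to each (rows; Kng2 is shown once) in the 12 libraries (columns); colour gives the value minus the gene's mean of 12 libraries in log2 units, and vertical lines separate WT MSC, KO MSC and tumors. The upper rows, led by Kng1, Hp and Esm1, are low in all 6 tumors, and the lower rows, led by Synpo and Ttyh2, are as high in tumor 4 as in WT MSC or nearly so.

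The chromosomal neighbours of the 5 genes, by RefSeq positions were Kng2 and 9 others, taking the nearest gene tested on either side. Of these 9, limma called 2 in tumors against WT MSC, where it called 21.3% of all genes, and 0 in the other comparisons, a share near the background. Snx18, a sorting nexin gene 374075 bases from Esm1, fell by 2.14 ± 0.35 (adjusted p = 0.00249, limma). Rpl38, a ribosomal protein gene 3135 bases from Ttyh2, rose by 4.26 ± 0.64 (SE; limma, adjusted p = 0.00204), while Ttyh2 had a lower mean. Reads of Rpl38 may be shared with pseudogenes. Txnl4b, 1077 bases from Hp, Dnaic2, 357 bases from Ttyh2, and the other 5 neighbours did not pass in any comparison.

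As a mean of the list, stromal identity genes of the sorted cells were highest in WT MSC and lowest in tumors. Their mean over 18 genes was 12.35, 11.93 and 11.50 in WT_MSC 1, 2 and 3, 10.84, 10.57 and 9.99 in the libraries labelled KO_MSC 1, 2 and 3, and 6.88 to 8.76 in tumors. All 18 were lower in KO MSC than in WT MSC (median -1.55, beside -0.01 over all genes) and 0 passed. In tumors 15 of 18 fell against WT MSC, where limma called 21.3% of all genes. Against KO MSC, where it called 4.98%, 9 fell, but 2 and 5 fell when the libraries labelled KO_MSC 1 and 2 were left out, each in turn. The tumor mean was higher for 1 of 18 genes against WT MSC and for 2 of 18 against KO MSC. This list was chosen with its fall in these libraries known and is not independent evidence of it.

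Other cell types also differed between the groups. Beside the counts below, limma called 21.3% of all genes in tumors against WT MSC and 4.98% against KO MSC. All 12 macrophage markers rose in tumors in both comparisons, with list means of 5.07 to 6.76 in the 6 MSC libraries and 11.22 to 14.22 in tumors. The mean of 11 erythroid markers was 9.56 to 12.42 in WT MSC, 9.90 to 12.11 in KO MSC and 7.03 to 10.36 in tumors, and 5 of 11 fell in each comparison with tumors. Of 12 adipocyte genes, among them Adipoq and Lpl of the stromal list, 4 fell and 1 rose in tumors against WT MSC, and 2 fell against KO MSC. The gene that rose, the fatty acid carrier gene Fabp4, did not pass without any of the 3 WT MSC libraries or without tumor 1, 5 or 6, and 1 fell against KO MSC without the library labelled KO_MSC 1 or 2 or tumor 1, 2, 4, 5 or 6. The part of cell composition in the values of the 5 genes was not tested, and for tumors it cannot be told apart from the change of tissue and extraction.

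**Figure D5:**
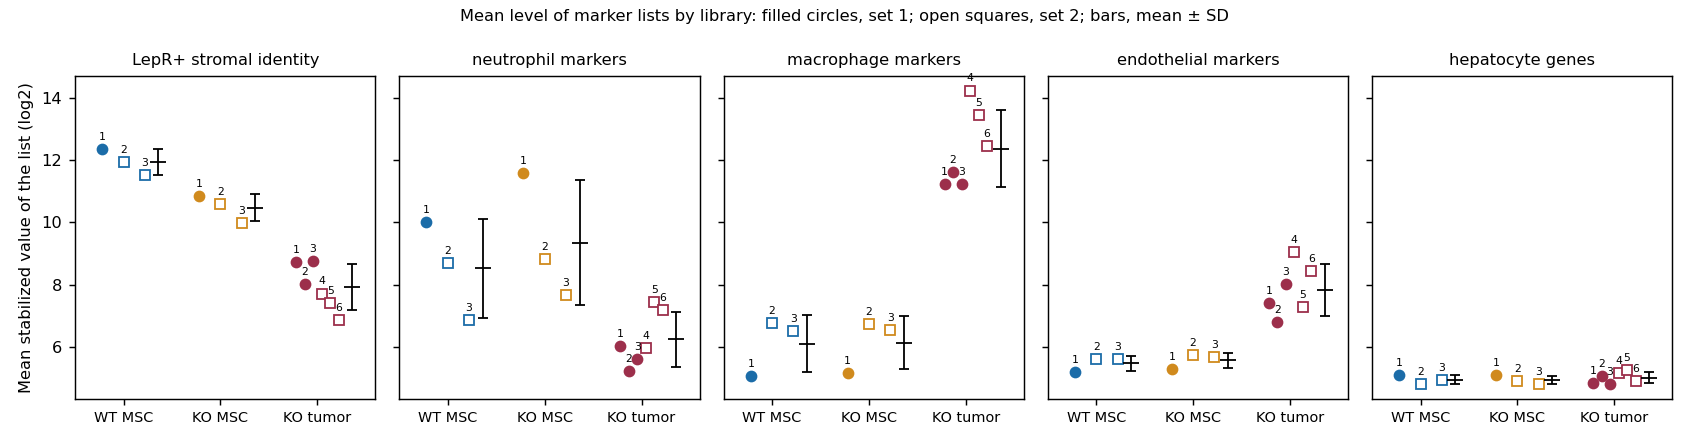
Mean stabilized log2 value (vertical axis) of 5 marker lists in each library by group (horizontal axis); circles are set 1, squares set 2, and the bars give mean ± SD. Stromal identity is lowest in tumors (6.88 to 8.76), macrophage and endothelial markers are highest there, neutrophil markers spread widely among MSC libraries and hepatocyte genes are at 4.81 to 5.26 throughout.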

How the data were processed

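Bulk RNA sequencing of 12 mouse libraries was used. Per the labels' protocols, cDNA was made with a low-input kit (SMART-Seq v4). The build was mm10 and the tools were Cuffdiff, Cufflinks 2.2.1 and TopHat2 2.0.13, per the submitters' processing notes, and the sources used here do not tell how the tables were made from the alignments. Analysis started from the log2 values that the authors deposited as variance-stabilized and batch-adjusted. The authors' other deposited table holds a score, 100 times the stabilized value divided by 1 factor per library (tolerance 0.01), and served as gene filter and as an alternative. The depth per library is unknown, so no counting interval is given.

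Floors of 9803 of 9803 genes lay symmetrically about the common floor of 4.75 in 2 sets of libraries (tolerance 1e-05). Only the groups compared entered a fit, made in R 4.3.3 with limma 3.58.1 (moderated by eBayes with a mean trend, two-sided, without a block), with Benjamini-Hochberg adjustment over 18948 genes and a threshold of 0.05, and was tested on simulated data. Coding sequences were aligned with MAFFT 7.526. All 5 genes and the 12 lists were chosen with earlier results of these data known. The genes named besides the 5 were partners and paralogs, up to 4 genes per list and comparison with the smallest adjusted p, the 3 nearest profiles, chromosomal neighbours and Trp53. Alternatives were gene filter, table, scaling, variance trend, library weights, a term for the sets, fits within a set, the replicate block and leaving out each library.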

Additional observations from a re-analysis of the deposited data

Results flagged for a closer look

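In a group of 4 to 10 samples, a library was singled out where its gap to the next was large against the range of the group by Dixon's criterion, which chance meets in about 1 of 20 groups. Among the 6 tumors this was so for 3 of 39 genes tested, a share of the order that chance gives, and for none of Kng1, Hp, Esm1, Synpo and Ttyh2. Actn4, a partner of synaptopodin, was at 13.46 in tumor 4, with the next tumor at 10.32. Myoz3, the neighbour of Synpo on the chromosome, was at 6.30 in tumor 4, with the next tumor at 5.12. Txnl4b, the neighbour of Hp, was at 7.88 in tumor 5, with the next tumor at 6.94.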

How the results depend on the processing

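The differences of the 5 genes kept their direction under all alternatives except for Hp and Esm1 in KO MSC against WT MSC. The Hp difference there turned to 0.034 with quantile scaling, 0.27 with library weights, 0.55 within set 2 and 0.55 without WT_MSC 1 (range without single libraries -0.81 to 0.55), and that of Esm1 to 0.15 within set 2 and 0.15 without WT_MSC 1 (range -0.86 to 0.15). Of 273 values of these differences under the alternatives, 262 moved by less than the spread between replicates, 5 moved further and 6 turned. The Synpo difference of KO MSC from WT MSC was -2.39 with quantile scaling.

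Genes passing in KO MSC against WT MSC numbered 2447 with library weights and 34 within set 2, and ranged from 0 to 0 without single libraries. In tumors against KO MSC they numbered 1481 with quantile scaling (520 higher and 961 lower, where 512 were higher and 432 lower as reported), 4821 with library weights and 0 within set 2, where 2520 had an unadjusted p under 0.05. Without single libraries they ranged from 113 (without the library labelled KO_MSC 1) to 1627 (without KO_MSC 3), with 396 without KO_MSC 2 and 597 and 621 without tumors 5 and 6. In tumors against WT MSC they numbered 6821 with library weights and 485 within set 2, and ranged from 1856 (without WT_MSC 1) to 4737 (without tumor 4), with 2339 and 2268 without WT_MSC 2 and 3. The cause of these moves was not tested, except that fits within a set use fewer libraries. Within set 1 each MSC group has 1 library, so no test was made there. Upper-quartile scaling moved the median of all genes by 0.105 in KO MSC against WT MSC and by 0.104 in tumors against WT MSC. It turned no difference of the 5 genes.

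The shared replicate numbers were not taken as pairs in the main fits. Deviations of same-numbered libraries from their group means correlated at 0.238, 0.152 and -0.148 between KO MSC and WT MSC, -0.218, -0.068 and 0.217 between tumors and KO MSC, and -0.319, -0.089 and 0.005 between tumors and WT MSC. With so few libraries in 2 sets, these values cannot tell whether the libraries were paired. With the replicate block 0, 34 and 1445 genes passed in the 3 comparisons, and the Kng1 difference of tumors from KO MSC was -4.72, since the block leaves tumors 4 to 6 without a partner. Depth is unknown, so low values such as those of Kng1 in tumors carry no limit of detection.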
